A study of Mus musculus with 14 samples.

Results

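Messenger RNA levels of 10 genes for inflammatory and regulatory cytokines, Il1a, Il1b, Il1rn, Tnf, Il6, Il10, Il12b, Il15, Il18 and Il27, were examined in dendritic cells, monocytes and macrophages of mouse bone marrow. The genes were taken by symbol, and all 10 were listed both in the table of dendritic cells, which holds 24980 genes, and in the table of monocytes and macrophages, which holds 17118. The cells came from Cx3Cr1gfp/+ mice, in which GFP stands in place of 1 Cx3cr1 allele in every group, although the text on the design speaks of wildtype mice. Dendritic cells were sorted as GFP high, MHCII high and CD11c high, without Gr-1 or B220, from mice given vehicle (4 libraries) or PAM3CSK4, a synthetic lipopeptide that activates TLR1/2, as a single dose (4 libraries). Monocytes (3 libraries) were sorted by CD115 and high GFP, without B220, and include Gr1 low and Gr1 high cells. Macrophages (3 libraries) were sorted as GFP negative, MHCII high and CD169 positive, without Gr-1 or B220. Both of these populations were taken at baseline, with no treatment. The sources state no age, sex, dose or interval after it, nor whether each library is a mouse of its own, so the spread between libraries may be technical in part.

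IL-1α and IL-1β, encoded by Il1a and Il1b, act on the same receptor, and the product of Il1rn occupies that receptor without starting a signal. IL-1β and IL-18 are made as inactive precursors that caspase-1 cleaves within inflammasomes, so their messages need not follow the secreted proteins. In myeloid cells, TLR1/2 signals through MyD88 to NF-kB and MAP kinases, which induce Il1b, Tnf, Il6 and Il12b, and also Il10, whose product restrains the same response. IL-15 is presented to NK and T cells on its own receptor chain, and IL-12 and IL-27 are pairs of subunits of which Il12b and Il27 each encode 1.

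The 250 bases before the transcription start are shown for 5 of the genes, from RefSeq's annotation of GRCm38.p6 and in the direction of transcription. Il1b, Il1rn and Tnf are printed because all lay above every vehicle library in PAM3CSK4 replicates 2 and 3 of the dendritic cells, Il18 because it separated macrophages from monocytes, and Il6 because it stayed below 1 CPM (counts scaled to a common library total) in every library. Capitals mark letters that match a searched motif on either strand.
Il1b, minus strand, chr2:129371140-129371389: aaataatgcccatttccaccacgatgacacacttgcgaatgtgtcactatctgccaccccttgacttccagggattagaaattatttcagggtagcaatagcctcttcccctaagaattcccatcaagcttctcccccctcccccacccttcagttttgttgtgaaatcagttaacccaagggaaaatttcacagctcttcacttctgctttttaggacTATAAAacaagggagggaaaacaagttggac
Il1rn, plus strand, chr2:24336610-24336859: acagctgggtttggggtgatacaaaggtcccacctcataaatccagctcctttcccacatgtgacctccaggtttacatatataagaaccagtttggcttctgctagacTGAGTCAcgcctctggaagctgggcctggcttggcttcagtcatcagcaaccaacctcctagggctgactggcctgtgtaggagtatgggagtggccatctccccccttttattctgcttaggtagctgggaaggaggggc
Tnf, minus strand, chr17:35202008-35202257: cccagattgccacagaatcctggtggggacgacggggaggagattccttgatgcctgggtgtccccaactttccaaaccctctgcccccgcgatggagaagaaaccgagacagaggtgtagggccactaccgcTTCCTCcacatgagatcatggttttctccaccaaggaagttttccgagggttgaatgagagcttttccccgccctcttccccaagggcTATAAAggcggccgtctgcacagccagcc
Il6, plus strand, chr5:30012864-30013113: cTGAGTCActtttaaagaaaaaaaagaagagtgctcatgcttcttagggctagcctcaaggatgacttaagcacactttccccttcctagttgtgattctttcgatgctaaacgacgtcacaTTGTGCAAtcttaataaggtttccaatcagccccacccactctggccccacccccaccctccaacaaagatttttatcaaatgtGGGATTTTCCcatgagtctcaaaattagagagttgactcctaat
Il18, plus strand, chr9:50554450-50554699: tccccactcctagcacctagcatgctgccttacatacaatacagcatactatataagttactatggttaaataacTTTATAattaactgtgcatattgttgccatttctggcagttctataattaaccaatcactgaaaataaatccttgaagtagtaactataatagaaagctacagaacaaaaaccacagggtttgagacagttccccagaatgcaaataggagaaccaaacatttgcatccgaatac
Of the 10 genes, 7 had an entry in that table. Searched were the NF-kB consensus, AP-1 (TGANTCA), C/EBP (TTGCNNAA), the core of PU.1 (GAGGAA) and the TATA box (TATAAA), and none of the capital stretches overlap. Among 32851 such windows of the genome, 3.90% held the NF-kB consensus, 6.75% AP-1, 9.56% C/EBP, 23.3% the PU.1 core and 12.4% the TATA box. Il1b held a TATA box from position −31 to −26 and no other match. Tnf held a TATA box from −29 to −24 and a PU.1 core on the opposite strand from −117 to −112. Il1rn held an AP-1 match from −141 to −135 in the window shown, and none of the 5 motifs in the windows of its other 2 start sites. Il6 held NF-kB from −44 to −35, AP-1 from −249 to −243 and C/EBP on the opposite strand from −128 to −121. Il18 held only a TATA box on the opposite strand, from −175 to −170. These are matches of letters in short windows, not measured binding.

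The values are CPM per gene, and are not divided by gene length, so levels are compared between libraries for a gene and not between genes. The listed genes of a library did not sum to a common total. The sums were 350368 to 532242 CPM in dendritic cells and 416945 to 578711 CPM in monocytes and macrophages. Judged from the smallest step between values, 1 CPM stood for 28.2 to 75.2 reads or fragments, and 0 reads in a library allow a level of up to 0.0399 to 0.106 CPM, depending on the library (3 reads, counting error only). The lowest value in the tables, 0.0001, stands for 0 reads. The libraries differed in the genes that mark their sort. Summed dendritic cell markers came to 7212 to 9807 CPM with vehicle and to 3653, 3390, 4389 and 597 CPM in PAM3CSK4 replicates 1 to 4. Summed neutrophil markers (10 of 10 listed genes measured) came to 405 to 789 CPM with vehicle and to 471, 1467, 875 and 11401 CPM with PAM3CSK4. Monocyte markers (6 of 6 measured) summed to 1426 to 2210 CPM with vehicle and to 724 to 1164 CPM with PAM3CSK4, without overlap. Erythroid markers summed to 4.32 to 74.4 CPM with vehicle and to 51.2, 205, 146 and 543 CPM in PAM3CSK4 replicates 1 to 4. Plasma and B cell markers summed to 1.66 to 9.50 and 3.29 to 36.4 CPM, and NK and T cell markers to 7.62 to 34.2 and 4.08 to 27.9 CPM, with vehicle and PAM3CSK4. In macrophages, plasma and B cell markers (6 of 7 measured) summed to 456 to 7646 CPM against 1.29 to 10.1 CPM in monocytes, and NK and T cell markers (6 of 7 measured) to 72.1 to 181 CPM against 10.2 to 22.3 CPM. Summed blood stem and progenitor cell markers were 381 to 1047 against 82.5 to 203 CPM, erythroid markers 35.7 to 303 against 1.51 to 29.4 CPM, and monocyte markers 325 to 799 against 7170 to 8691 CPM, each in macrophages against monocytes. The 6 macrophage markers summed to 216, 164 and 250 CPM in macrophages and to 216, 82.3 and 111 CPM in monocytes, with overlap. Within that list Adgre1, which encodes F4/80, lay at 16.2 to 32.6 CPM in macrophages and 42.6 to 93.9 CPM in monocytes, and Siglec1, which encodes the sorted marker CD169, at 18.6 to 25.2 and 2.20 to 34.7 CPM. In bulk libraries such as these, fewer cells of a type and less RNA per cell cannot be told apart.

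In dendritic cells, Il1b was the cytokine gene that rose after PAM3CSK4, about 5.31-fold by the ratio of means (11.4 ± 4.90 CPM with vehicle and 60.4 ± 41.2 CPM with PAM3CSK4, SD, n = 4 each). Il1rn, Tnf and Il10 also lay above every vehicle library in PAM3CSK4 replicates 2 and 3, but replicate 1 lay within or below the range of vehicle. Il1rn and Tnf did not pass the test, and Il10 was below the filter and not tested. Il1a, Il6, Il10 and Il27 lay under 1 CPM in every vehicle library, as 12976 of the 24980 genes did. Il6, Il12b and Il27 lay under 1 CPM in every PAM3CSK4 library, as 12634 genes did. The test was limma on log2(CPM + 1), which understates changes of low genes, with Benjamini-Hochberg adjustment over the 11377 genes with at least 1 CPM in at least 4 libraries. Of the 10 cytokine genes 5 passed that filter (Il1b, Il1rn, Tnf, Il15 and Il18), and 1 rose and 0 fell at an adjusted p under 0.05, where 5.12% of all genes tested were called, 2.82% rising and 2.29% falling. Il1b was also the only one of the 5 whose groups did not overlap, against 10.1% of all genes tested that lay higher without overlap and 4.68% that lay lower. Over all 10 genes without the filter the median log2 change was 0.46; that over the whole table is held at 0 by genes without reads, and over the genes tested it was 0.20.

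**Figure D1:**
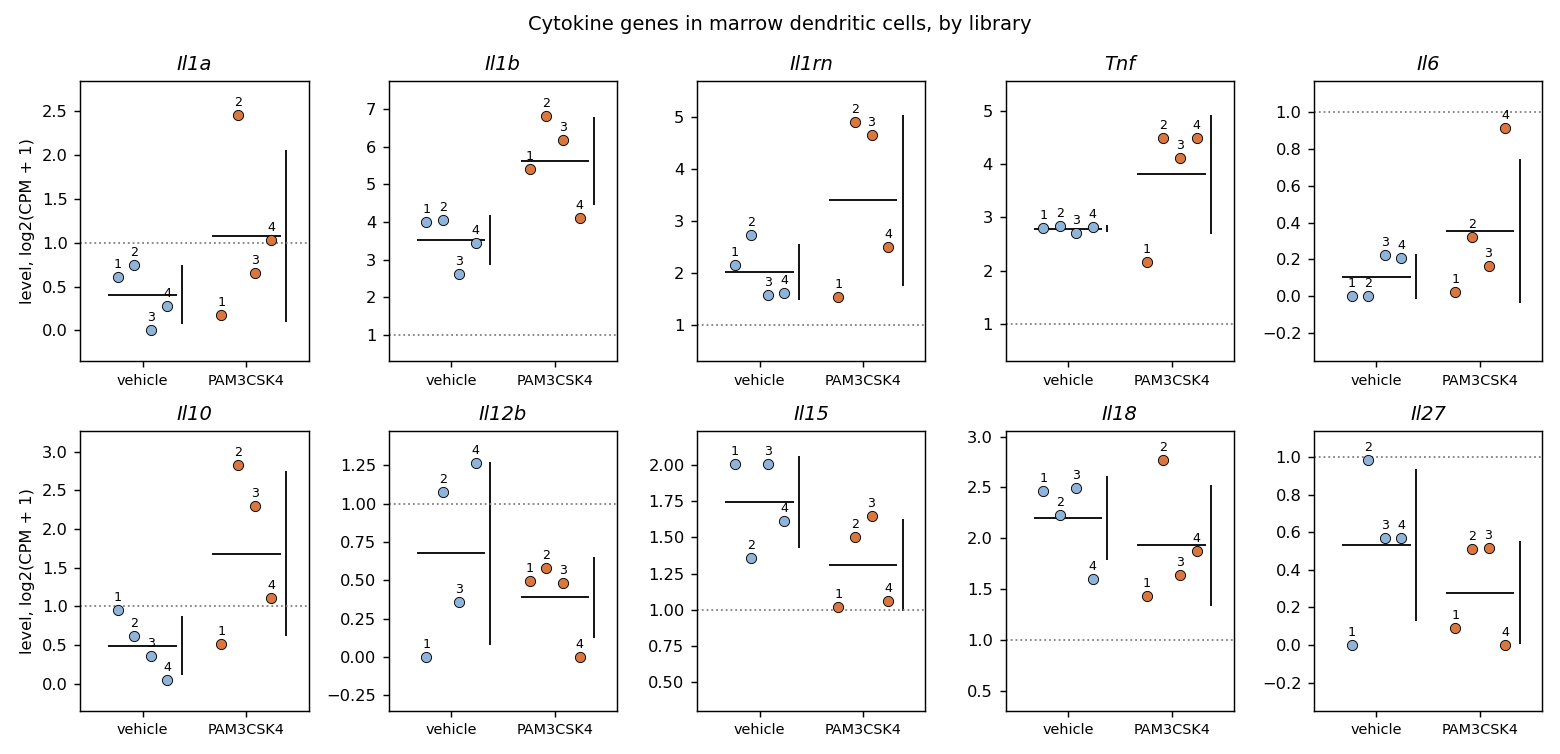
Level of each of the 10 cytokine genes in dendritic cells as log2(CPM + 1), by treatment. Each point is a library numbered by its replicate, the line is the mean, the bar the SD of the log2 values over 4 libraries, and the dotted line marks 1 CPM. Il1b lies higher in all 4 PAM3CSK4 libraries, while replicate 1 lies low for Il1rn, Tnf and Il10.

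Il1b spans bases 129364578 to 129371139 of chromosome 2 (mm10) on the minus strand. Its values were 14.9, 15.6, 5.08 and 9.86 CPM in vehicle replicates 1 to 4 and 41.6, 112, 71.6 and 16.2 CPM in PAM3CSK4 replicates 1 to 4. All 4 treated libraries thus lay above all 4 vehicle libraries, but PAM3CSK4 replicate 4 was only just above the highest of them. The log2 change was 2.11 ± 0.51 (SE), with an adjusted p of 0.0354 by limma. The call held without PAM3CSK4 replicate 1 (log2 change 2.18, adjusted p = 0.0350) and without replicate 4 (2.62, adjusted p = 0.000832). It was lost when any of the other 6 libraries was left out, with adjusted p up to 0.101 and log2 changes from 1.71. Median centring gave an adjusted p of 0.0637, quantile normalization 0.0625 and the test without a filter 0.242. Replicate 4, the lowest of the treated libraries for Il1b, had the highest neutrophil markers (Ly6g 2.48 CPM, at most 0.264 CPM in the other dendritic cell libraries) and the lowest dendritic cell markers. That library also had the highest erythroid and the highest plasma and B cell sums, 543 and 36.4 CPM. Replicate 2, the highest for Il1b, had the highest summed macrophage markers, 1089 CPM against 143 to 484 CPM in the other dendritic cell libraries. The part of these cells in the change of Il1b was not tested. The antisense gene Il1bos overlaps Il1b and lay at 0.0529 to 0.204 CPM with vehicle and 0.215 to 0.595 CPM with PAM3CSK4, and reads of the pair cannot be told apart where they overlap.

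Il1a, the other agonist of the IL-1 receptor, lies on the minus strand of chromosome 2 at 129299610 to 129309972. It measured 0.531, 0.673, 0.00256 and 0.213 CPM with vehicle and 0.127, 4.48, 0.575 and 1.04 CPM with PAM3CSK4. The groups overlapped, and only PAM3CSK4 replicates 2 and 4 reached 1 CPM. It was below the filter, and without a filter its log2 change was 0.67 ± 0.49 (adjusted p = 0.716, limma). The gene Gm14023 overlaps Il1a on the opposite strand, and reads of the pair cannot be told apart where they overlap.

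Il1rn, the receptor antagonist, lies on the plus strand of chromosome 2 at 24336860 to 24351491. It measured 3.44, 5.68, 1.98 and 2.04 CPM with vehicle and 1.91, 29.1, 24.4 and 4.62 CPM with PAM3CSK4. Replicates 2 and 3 lay above every vehicle library, replicate 4 lay among them and replicate 1 below all of them. The log2 change of 1.38 ± 0.65 had an adjusted p of 0.206 by limma, and without PAM3CSK4 replicate 1 it was 2.00 with an adjusted p of 0.0379.

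Tnf, a cytokine that acts early in inflammation, spans 35199367 to 35202007 on the minus strand of chromosome 17. Its 4 vehicle libraries were nearly equal, at 5.99, 6.13, 5.51 and 6.04 CPM. The PAM3CSK4 libraries measured 3.46, 21.5, 16.3 and 21.5 CPM, so that 3 lay above every vehicle library and replicate 1 below all of them. The log2 change was 1.02 ± 0.44 (adjusted p = 0.176, limma) and, without PAM3CSK4 replicate 1, 1.57 (adjusted p = 0.00290). Replicate 1 had neutrophil markers within the range of vehicle and dendritic cell markers between those of PAM3CSK4 replicates 2 and 3.

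Il10, the main cytokine restraining myeloid activation, lies on the plus strand of chromosome 1 at 131019845 to 131024970. It measured 0.936, 0.528, 0.281 and 0.0335 CPM with vehicle, all below 1 CPM. With PAM3CSK4 it measured 0.426, 6.09, 3.90 and 1.15 CPM, so that replicates 2 to 4 lay above every vehicle library and replicate 1 among them. These 3 higher values stood for 172, 118 and 75 reads. The gene did not pass the filter, which asks for 4 libraries at 1 CPM. Without the filter its log2 change was 1.19 ± 0.54 (adjusted p = 0.429, limma). With 1 library left out the filter asks for 3, which PAM3CSK4 replicates 2 to 4 alone could meet. Without PAM3CSK4 replicate 1 the log2 change was 1.58 (adjusted p = 0.0336, limma). Il10 was also tested without each vehicle library (adjusted p = 0.204 to 0.244) and after rescaling to a common total (0.173), and was not called in these fits.

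Leaving out PAM3CSK4 replicate 1 thus kept Il1b and brought Il1rn, Tnf and Il10 past the threshold, 4 of the 6 cytokine genes then tested. Of all genes, 1008 of 11562 tested were called in that fit and 582 of 11377 with all 8 libraries. Il10 entered that fit only through its PAM3CSK4 libraries, as every vehicle value was under 1 CPM. Its call there thus adds no support for a rise. Without PAM3CSK4 replicates 1 and 4 together, an alternative chosen after seeing the data, the same 4 of 7 cytokine genes tested passed. Il10 again entered only through its PAM3CSK4 libraries. The log2 changes were 2.98 for Il1b, 2.77 for Il1rn, 1.51 for Tnf and 2.07 for Il10, and 1200 of all 11751 genes tested were called. The labels mark neither library as different from the others of its group, and the values with all 8 libraries remain the result.

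**Figure D2:**
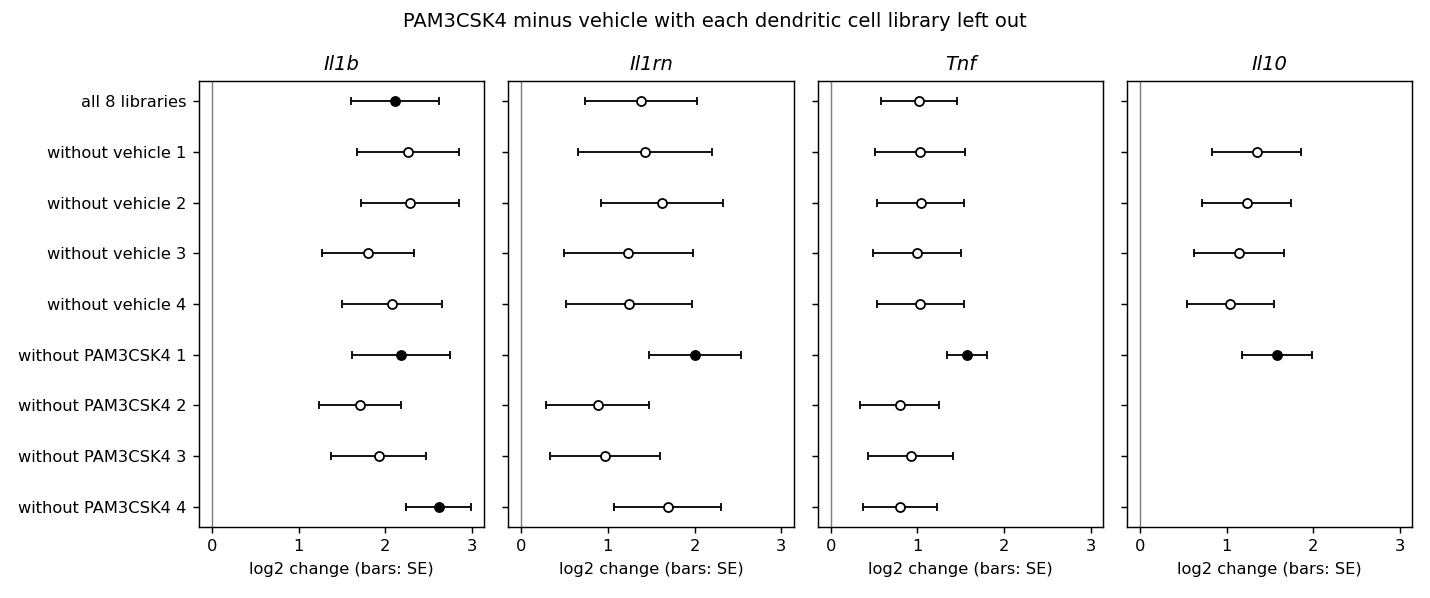
Log2 change of Il1b, Il1rn, Tnf and Il10 in dendritic cells after PAM3CSK4 with all 8 libraries and with each library left out. Points are estimates with SE bars, filled points have an adjusted p under 0.05, and a missing point marks a fit in which the gene was below the filter. The 4 genes are all filled only without PAM3CSK4 replicate 1, where Il10 is tested only because of its PAM3CSK4 libraries.

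The groups overlapped for the remaining low genes, Il6, Il12b and Il27. Il6, which drives the acute-phase response and acts through gp130, on the plus strand of chromosome 5 at 30013114 to 30019975, was listed at 0.0001, 0.0001, 0.166 and 0.155 CPM with vehicle and at 0.0159, 0.248, 0.123 and 0.881 CPM with PAM3CSK4. It did not pass the filter, and the highest value, in PAM3CSK4 replicate 4, stood for 57.5 reads, against at most 9.28 in any other dendritic cell library. Il12b, on the plus strand of chromosome 11 at 44400063 to 44414677, measured 0.0001, 1.11, 0.281 and 1.40 CPM with vehicle and 0.410, 0.496, 0.396 and 0.0001 CPM with PAM3CSK4. Vehicle replicates 2 and 4 alone reached 1 CPM. Il27, on the minus strand of chromosome 7 at 126589295 to 126594910, measured 0.0001, 0.976, 0.485 and 0.485 CPM with vehicle and 0.0632, 0.425, 0.429 and 0.0001 CPM with PAM3CSK4. Without a filter the adjusted p by limma was 0.752 for Il6, 0.839 for Il12b and 0.769 for Il27.

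Il15 and Il18 were measured in every dendritic cell library and passed no threshold. Il15, on the minus strand of chromosome 8 at 82331624 to 82402586, measured 3.02, 1.57, 3.03 and 2.06 CPM with vehicle and 1.02, 1.84, 2.14 and 1.09 CPM with PAM3CSK4. The log2 change was −0.44 ± 0.26 (adjusted p = 0.313, limma), and the groups overlapped. Il18, on the plus strand of chromosome 9 at 50554700 to 50581841, measured 4.53, 3.68, 4.64 and 2.03 CPM with vehicle and 1.69, 5.84, 2.12 and 2.66 CPM with PAM3CSK4. PAM3CSK4 replicate 2 held the highest value of all 8 and replicate 1 the lowest, and the log2 change was −0.27 ± 0.33 (adjusted p = 0.636). Bco2, an enzyme of carotenoid cleavage that overlaps Il18 on the opposite strand, measured 2.08 to 5.03 CPM with vehicle and 0.290 to 0.905 CPM with PAM3CSK4 (log2 change −1.39 ± 0.27, adjusted p = 0.0152). Tex12 also overlaps Il18 on the opposite strand. The sources do not say whether reads were counted by strand, so reads of Il18 and of Bco2 or Tex12 cannot be told apart where the genes overlap.

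Receptors, processing enzymes and signal transducers of these cytokines were followed through a list of 38 genes, of which 36 are in both tables. In dendritic cells 30 of them were tested and 5 were called, 3 of which rose and 2 fell, where 5.12% of all genes tested were called, 2.82% rising and 2.29% falling, with a median log2 change of 0.16 where that of all genes tested was 0.20. Il1r1, counted among the 3 that rose, met the filter only through its PAM3CSK4 libraries. Socs3, which inhibits signalling through the IL-6 receptor, measured 9.71, 8.99, 4.24 and 19.9 CPM with vehicle and 34.0, 173, 166 and 55.0 CPM with PAM3CSK4. All treated libraries were higher, and the log2 change was 3.06 ± 0.53 (adjusted p = 0.00885, limma). Il6ra, the ligand-binding chain of that receptor, measured 102, 143, 136 and 157 CPM with vehicle and 67.1, 51.4, 61.8 and 58.5 CPM with PAM3CSK4. It fell by 1.15 ± 0.21 on the log2 scale (adjusted p = 0.0107), with an adjusted p of 0.0511 without vehicle replicate 2. Il6st, the signalling chain gp130, lay at 224 to 410 CPM with vehicle and 79.9 to 179 CPM with PAM3CSK4, without overlap (log2 change −1.03 ± 0.29, adjusted p = 0.0601). Il6st passed after median centring, quantile normalization and rescaling to a common total (adjusted p = 0.0298, 0.0257 and 0.0293) and without PAM3CSK4 replicate 1 (0.0350). The monocyte and dendritic cell markers were also lower in all 4 PAM3CSK4 libraries, and their part in the lower Il6ra and Il6st was not tested. Stat3, the transcription factor downstream of gp130, had a log2 change of 0.80 ± 0.25 (adjusted p = 0.0794), also without overlap, and passed without PAM3CSK4 replicate 4 (0.0243).

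Il12rb2, a signalling chain of the IL-12 receptor, measured 14.5, 28.2, 34.3 and 19.1 CPM with vehicle and 9.86, 3.16, 1.89 and 0.878 CPM with PAM3CSK4. It fell in all treated libraries, by 2.59 ± 0.47 on the log2 scale (adjusted p = 0.0107, limma). It was lowest in replicate 4, the library with the lowest dendritic cell markers, and the part of the lower dendritic cell and monocyte markers was not tested. Ebi3, which pairs with the product of Il27, had a log2 change of 0.17 ± 0.34, and Il27ra, a chain of the IL-27 receptor, 0.37 ± 0.25, and neither passed. Il12a, which encodes the partner of the Il12b product in IL-12, was singled out after its values were seen and is not among the genes tested. It measured 0.481, 0.0792, 0.195 and 0.529 CPM with vehicle and 2.13, 0.948, 2.87 and 3.10 CPM with PAM3CSK4. The groups did not overlap, and without a filter its log2 change was 1.26 with an adjusted p of 0.143 (limma). Without PAM3CSK4 replicate 2 its adjusted p was 0.0161. Il12a was also tested without each vehicle library and called in none of these fits, with adjusted p up to 0.0896. It entered all of these fits only through its PAM3CSK4 libraries, as every vehicle value was under 1 CPM.

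Among the genes of the IL-1 and IL-18 systems, Il1r1, the signalling receptor for both IL-1 agonists, measured 0.309, 0.707, 1.20 and 0.840 CPM with vehicle and 2.32, 1.90, 4.45 and 5.08 CPM with PAM3CSK4. It lay higher by 1.29 ± 0.30 on the log2 scale (adjusted p = 0.0315, limma). Vehicle replicate 3 alone of its group reached 1 CPM, so Il1r1 met the filter only through its PAM3CSK4 libraries. Its call thus adds no support for a rise. Without a filter the adjusted p was 0.179. The call was lost without vehicle replicate 1 (0.0966), 2 (0.0883), 3 (0.0583) or 4 (0.0735) or PAM3CSK4 replicate 3 (0.0875), the values in parentheses being adjusted p. Pycard, the inflammasome adaptor ASC, measured 28.9, 46.7, 22.6 and 34.1 CPM with vehicle and 54.1, 72.5, 68.2 and 57.3 CPM with PAM3CSK4. It rose by 0.95 ± 0.24 (adjusted p = 0.0445), a call that held in 3 of the 8 fits with a library left out. Its adjusted p went to 0.107 without vehicle replicate 1, 0.103 without 3 and 0.0888 without 4, to 0.0969 without PAM3CSK4 replicate 2 and 0.110 without 3, and to 0.0586 to 0.0829 when the libraries were rescaled. Il18r1 and Il18rap, the chains of the IL-18 receptor, had log2 changes of 1.25 ± 0.33 and 1.31 ± 0.35 and missed the threshold (adjusted p = 0.0513 and 0.0525); Il18r1 passed without PAM3CSK4 replicate 2 (0.0287) and Il18rap without replicate 3 (0.0376). Nlrp3, an inflammasome sensor, had a log2 change of −0.75 ± 0.26 (adjusted p = 0.105), and Casp4, the mouse caspase-11, 0.49 ± 0.32 (adjusted p = 0.365). Of other IL-1 family cytokines, Il33 and Il1f9 were listed and lay below the filter. Il1f9, the older symbol of the epithelial and myeloid cytokine Il36g, was described after its values were seen, at 0.0001, 0.0001, 0.179 and 0.184 CPM with vehicle and 0.521, 1.49, 0.694 and 6.92 CPM with PAM3CSK4. The groups did not overlap, and the highest value fell in replicate 4, the library with the highest neutrophil markers, whose part was not tested.

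In the TNF, IL-10 and IL-15 systems no partner gene passed. Ltb, a TNF family ligand, had a log2 change of 0.86 ± 0.26 (adjusted p = 0.0749, limma; 0.0275 without PAM3CSK4 replicate 4) without overlap, and Adam17, the protease that sheds TNF, 0.27 ± 0.27 (adjusted p = 0.558). Il10ra, the ligand-binding chain of the IL-10 receptor, lay at 147 to 224 CPM with vehicle and 28.9 to 142 CPM with PAM3CSK4. The log2 change of −1.05 ± 0.43 had an adjusted p of 0.163, and Il10rb, the other chain, changed by 0.16 ± 0.31 (adjusted p = 0.782). Il15ra, which presents IL-15, had a log2 change of 0.69 ± 0.36 (adjusted p = 0.260) and Il2rg, the common γ chain, 0.22 ± 0.30 (adjusted p = 0.688).

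**Figure D3:**
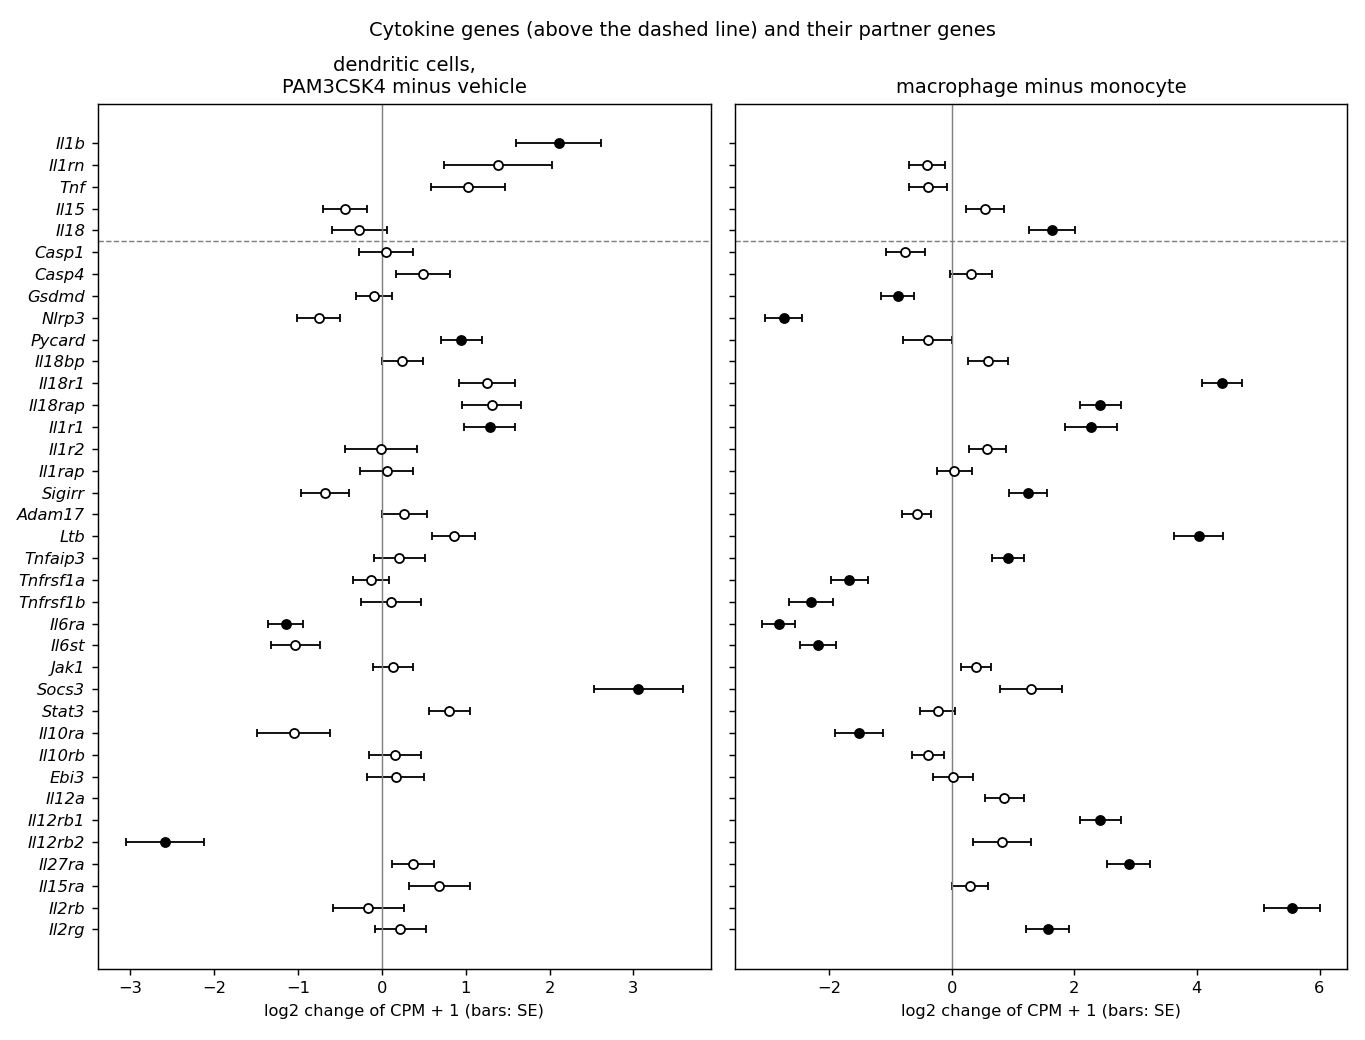
Log2 change with SE bars of the cytokine genes tested (above the dashed line) and of their receptors, enzymes and transducers, for PAM3CSK4 against vehicle in dendritic cells and for macrophages against monocytes. Filled points have an adjusted p under 0.05. In dendritic cells Il1b, Pycard, Il1r1, Socs3, Il6ra and Il12rb2 are filled, and in macrophages Il18 with 17 partner genes. Il1r1 in dendritic cells and Il18r1 and Il2rb in macrophages are tested only because of the group where they lie higher.

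At baseline, macrophages differed from monocytes in Il18, which was about 4.40-fold higher by the ratio of means (1.36 ± 0.990 CPM in monocytes and 6.0 ± 1.76 CPM in macrophages, SD, n = 3 each). Tnf, Il15 and Il1rn were measured in both populations and did not pass the test, and the other 6 genes lay mostly under 1 CPM. Il1a, Il6, Il10, Il12b and Il27 were under 1 CPM in every monocyte library, as 5198 of the 17118 genes were, and Il1b, Il6, Il10 and Il27 in every macrophage library, as 4036 genes were. The test was again limma on log2(CPM + 1), over 12188 genes with at least 1 CPM in at least 3 libraries. Of the 10 cytokine genes 4 passed that filter, and 1 was higher and 0 lower in macrophages, where 20.2% of all genes tested were called, 12.8% as higher and 7.42% as lower. Without overlap lay 1 of the 4 genes higher (Il18) and 1 lower (Il1rn), against 20.4% and 13.8% of all genes tested. Over all 10 genes without the filter the median log2 difference was 0.19, where that over the whole table was 0.10.

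**Figure D4:**
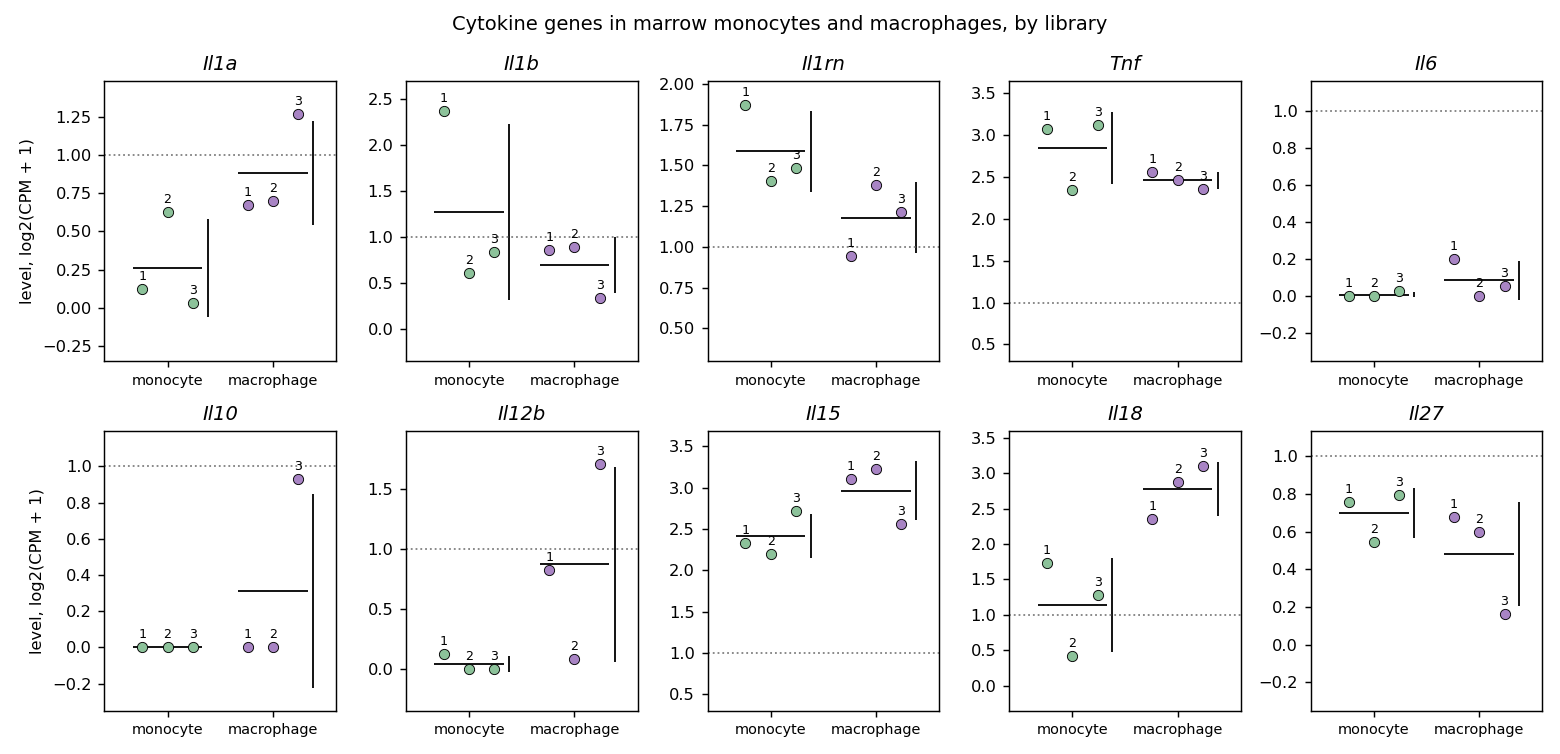
Level of each of the 10 cytokine genes in monocytes and macrophages as log2(CPM + 1). Each point is a library numbered by its replicate, the line is the mean, the bar the SD of the log2 values over 3 libraries, and the dotted line marks 1 CPM. Il18 lies higher in all 3 macrophage libraries, and Il6, Il10 and Il27 lie below the dotted line throughout.

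Il18 measured 2.32, 0.341 and 1.43 CPM in monocyte replicates 1 to 3 and 4.10, 6.31 and 7.58 CPM in macrophage replicates 1 to 3. All macrophage libraries were higher, with a log2 difference of 1.63 ± 0.37 (adjusted p = 0.00859, limma). The call held with each library left out in turn, with adjusted p up to 0.0482, and was lost under quantile normalization (log2 difference 0.99, adjusted p = 0.104). Without a filter the adjusted p was 0.0494. Bco2, which overlaps it, measured 2.33, 0.441 and 0.656 CPM in monocytes and 1.53, 3.58 and 1.69 CPM in macrophages (log2 difference 0.66 ± 0.38, adjusted p = 0.282). Plasma and B cell, NK and T cell, stem and progenitor cell and erythroid markers were also higher in all 3 macrophage libraries. The erythroid sums, 35.7, 54.3 and 303 CPM, had the same order as Il18 over these libraries and the progenitor sums, 1047, 579 and 381 CPM, the opposite order. The part of such cells in the level of Il18 was not tested.

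Il15 measured 4.03, 3.60 and 5.57 CPM in monocytes and 7.60, 8.38 and 4.91 CPM in macrophages. Macrophage replicate 3 lay among the monocytes, and the log2 difference was 0.55 ± 0.31 (adjusted p = 0.264, limma). Tnf measured 7.43, 4.09 and 7.71 CPM in monocytes and 4.88, 4.52 and 4.14 CPM in macrophages, so that the groups overlapped (log2 difference −0.39 ± 0.31, adjusted p = 0.453). Il1rn measured 2.65, 1.64 and 1.80 CPM in monocytes and 0.927, 1.60 and 1.32 CPM in macrophages. All macrophage libraries lay lower, by a narrow margin, and the log2 difference of −0.41 ± 0.29 had an adjusted p of 0.400. Quantile normalization brought both genes past the threshold as lower in macrophages (Il1rn −1.14, adjusted p = 0.0173, and Tnf −0.91, adjusted p = 0.0439).

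Il1b measured 4.16, 0.521 and 0.788 CPM in monocytes and 0.808, 0.851 and 0.266 CPM in macrophages. Only monocyte replicate 1 passed 1 CPM, and that library also held the highest dendritic cell markers of the monocytes, 2624 CPM against 528 and 226 CPM; the part of such cells was not tested. Il1a measured 0.0885, 0.541 and 0.0226 CPM in monocytes and 0.591, 0.623 and 1.41 CPM in macrophages, higher in all 3, with an adjusted p of 0.136 when no filter was set (log2 difference 0.62 ± 0.23, limma). Il12b was listed at 0.0885, 0.0001 and 0.0001 CPM in monocytes and at 0.778, 0.0588 and 2.27 CPM in macrophages. Macrophage replicate 3, the only library above 1 CPM for Il1a and Il12b, was also the library with the highest plasma and B cell markers, and the part of those cells was not tested.

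Il10 had no read in any monocyte library and none in macrophage replicates 1 and 2, and measured 0.904 CPM in macrophage replicate 3. That library had the highest plasma and B cell markers, and the part of those cells in Il10 was not tested. Il6 was listed at 0.0001, 0.0001 and 0.0189 CPM in monocytes and at 0.150, 0.0001 and 0.0400 CPM in macrophages. Il6 was thus at or near the limit of what these depths detect, while Il10 was detected in macrophage replicate 3 alone, with 68 reads. Il27 measured 0.690, 0.461 and 0.731 CPM in monocytes and 0.598, 0.514 and 0.120 CPM in macrophages, with overlap.

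Of the partner genes 17 of 32 tested were called, 10 higher and 7 lower in macrophages, where 20.2% of all genes tested were called, 12.8% as higher and 7.42% as lower. Their median log2 difference was 0.36 where that of all genes tested was 0.10. Receptor chains for IL-18, IL-12, IL-27 and IL-15 were among those higher in macrophages. Il18r1 measured 0.849, 0.0001 and 0.694 CPM in monocytes and 36.9, 31.6 and 23.3 CPM in macrophages (log2 difference 4.41 ± 0.33). As every monocyte value was under 1 CPM, Il18r1 met the filter only through its macrophage libraries. Without a filter its adjusted p was 0.00328 (limma). Il18rap lay at 5.48 to 13.2 and 35.9 to 57.0 CPM (2.42 ± 0.34). Il12rb1, shared by the receptors of IL-12 and IL-23, lay at 0.319 to 1.24 and 7.35 to 12.4 CPM (2.42 ± 0.33), and Il27ra at 1.07 to 2.74 and 13.3 to 26.7 CPM (2.89 ± 0.35). Il2rb, a chain shared by the receptors of IL-15 and IL-2 and abundant in NK cells, measured 1.47, 0.321 and 0.394 CPM in monocytes and 145, 83.4 and 36.9 CPM in macrophages (5.55 ± 0.45, adjusted p = 2.0e-05, limma). Il2rb and Il12rb1 also met the filter only with their macrophage libraries. Without a filter their adjusted p was 0.00419 and 0.00824. The summed NK and T cell markers of the same 3 macrophage libraries were 181, 123 and 72.1 CPM, in the same order as Il2rb. Their stem and progenitor cell sums, 1047, 579 and 381 CPM, had that order too. The part of NK and T cells or of progenitor cells in these receptor levels was not tested. Il2rg was also higher (1.57 ± 0.35, adjusted p = 0.00754, and 0.0581 without macrophage replicate 1).

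Il1r1 was higher in macrophages too, at 33.4, 22.7 and 19.0 CPM against 3.20, 9.91 and 2.14 CPM (log2 difference 2.27 ± 0.43). Sigirr, an inhibitory receptor of the IL-1 family, was higher by 1.24 ± 0.31 (adjusted p = 0.0130, limma), and lost its call without macrophage replicate 1 (0.0743) or 2 (0.0505). Ltb lay at 0.401 to 2.19 CPM in monocytes and 18.2 to 42.1 CPM in macrophages (4.03 ± 0.40). Tnfaip3, the NF-kB inhibitor A20, was higher by 0.92 ± 0.26 (adjusted p = 0.0274). Its adjusted p was 0.123 without monocyte replicate 3, 0.0648, 0.109 and 0.0517 without macrophage replicates 1, 2 and 3, and 0.0529 after median centring.

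Lower in macrophages were receptor chains for IL-6, TNF and IL-10 and 2 genes of IL-1 release. Il6ra measured 329, 202 and 282 CPM in monocytes and 41.6, 28.9 and 41.2 CPM in macrophages (log2 difference −2.82 ± 0.27), and Il6st 262, 358 and 238 CPM against 61.6, 42.2 and 88.3 CPM (−2.18 ± 0.30). Tnfrsf1a and Tnfrsf1b, the receptors of TNF, had log2 differences of −1.67 ± 0.30 and −2.30 ± 0.35. Il10ra had one of −1.51 ± 0.39 (adjusted p = 0.0158, limma, and 0.0697 without macrophage replicate 1). Nlrp3 measured 49.9, 30.0 and 47.7 CPM in monocytes and 6.91, 5.62 and 3.96 CPM in macrophages (−2.74 ± 0.30). Monocyte markers were lower in the same libraries, and their part was not tested. Gsdmd, the pore through which IL-1β leaves the cell, was lower, with a log2 difference of −0.88 ± 0.27 (adjusted p = 0.0369), a call that held in 1 of the 6 fits with a library left out. Without monocyte replicates 1 and 3 its adjusted p was 0.139 and 0.130, and without macrophage replicates 1, 2 and 3 it was 0.0718, 0.0869 and 0.138.

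Partner genes of this comparison that did not pass included Casp1, which cleaves both precursors, with a log2 difference of −0.76 ± 0.31 (adjusted p = 0.119, limma). Pycard had one of −0.39 ± 0.40, Il18bp, the secreted inhibitor of IL-18, 0.59 ± 0.32, and Il1r2, the IL-1 decoy receptor, 0.58 ± 0.30. Adam17 (−0.57 ± 0.24), Socs3 (1.30 ± 0.50), Jak1 (0.40 ± 0.25), Il10rb (−0.38 ± 0.26), Il12a (0.86 ± 0.32), Il12rb2 (0.82 ± 0.47) and Il15ra (0.29 ± 0.30) also missed the threshold. Of these, Socs3 passed without monocyte replicate 1 (0.00271) or macrophage replicate 3 (0.0493), Il12a without monocyte replicate 2 (0.0282), and Il12rb2 without monocyte replicate 1 (0.0479). Adam17 passed after median centring (0.0219), Jak1 after quantile normalization (0.0235) and with a common total (0.0441), and Il12a with a common total (0.0467).

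Set side by side, with no test because the tables were made and scaled separately, Il1b lay at 5.08 to 15.6 CPM in vehicle dendritic cells, 0.521 to 4.16 CPM in monocytes and 0.266 to 0.851 CPM in macrophages. The first range lies above both others, and those of monocytes and macrophages overlap. Il15 lay at 1.57 to 3.03, 3.60 to 5.57 and 4.91 to 8.38 CPM in the same order, lowest in dendritic cells. Il18 ranged from 2.03 to 4.64, 0.341 to 2.32 and 4.10 to 7.58 CPM, and Tnf from 5.51 to 6.13, 4.09 to 7.71 and 4.14 to 4.88 CPM, where dendritic cells lay within the range of monocytes. Il6 and Il27 were under 1 CPM in all 14 libraries.

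Genes whose log2 profiles over the 8 dendritic cell libraries lay nearest to that of Il1b were taken by the root mean square difference after centring, which is a description and shares the libraries with the test above. They were Cd300e (0.299), Hmox1 (0.408), Bcl2a1a (0.410), Bcl2a1b (0.491) and Slc15a3 (0.501), where the median over all genes tested was 1.33. Cd300e encodes an activating myeloid receptor, Hmox1 the haem-degrading enzyme, the Bcl2a1 genes apoptosis inhibitors so alike in sequence that reads may be split between them, and Slc15a3 a lysosomal peptide transporter. Over the 6 monocyte and macrophage libraries the genes nearest to Il18 were Trim7 (0.135), Ppp1r15a (0.167), Csrnp1 (0.201), Trim2 (0.205) and Tspan33 (0.231), where the median was 0.964. Ppp1r15a, which encodes the stress-response phosphatase subunit GADD34, had means of 12.1 ± 6.07 CPM in monocytes and 44.2 ± 8.48 CPM in macrophages (SD, n = 3 each).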

How the data were processed

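RNA was sequenced from 14 libraries after depletion of ribosomal RNA, per the labels' protocols. Per the submitters' processing notes, STAR 2.5.3a and Partek were used with the build mm10; the annotation and the use of strand are not stated there. The authors deposited 2 tables of values named FPKM, but these are CPM: low values lie on whole multiples of 1 step that is the same for all genes of a library (66.0% to 68.6% of values up to 50 steps in dendritic cells and 87.6% to 90.5% in the other table, at most 12.2% with a step 7% longer). That is too few to recover counts, so no count test was run. The number of reads or fragments per CPM was 28.2 to 75.2 and limits the precision of low values.

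Groups and replicate numbers came from the sample titles. A further 3 value columns of the monocyte and macrophage table name dendritic cells but match no single sample by name and were not used, so dendritic cells were not tested against the other populations. Values were analysed as log2(CPM + 1) in limma 3.58.1 (R 4.3.3) with a trended variance prior, separately for each table and over its 2 groups, after a filter of 1 CPM in at least 4 (dendritic cells) or 3 libraries. Two-sided p-values were adjusted by the method of Benjamini and Hochberg across every gene in the fit, and calls were made under 0.05. The script was tested on simulated data. Alternatives were the pseudocount, the filter, 3 rescalings, the replicate number as a block and each library left out. Coordinates were read from the tables, whose end lies 1 base past the last base of the gene.

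The cytokine genes, partner genes and marker lists were chosen with earlier results of these data known. All 10 cytokine genes are reported. Partner genes past the threshold are named, and of the others up to 2 per cytokine system in order of p, and for Il1b and Il18 the 5 genes of nearest profile. Il36a and Il36g of the partner list are not in the tables under those symbols; Il1f9, the older symbol of Il36g, is.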

Additional observations from a re-analysis of the deposited data

How the results depend on the processing

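In dendritic cells, with 1 cytokine gene called of 5 tested, limma called 0 without the filter (10 tested, 1 higher at an unadjusted p under 0.05), 0 after median centring (1 higher and 1 lower at an unadjusted p under 0.05) and 0 after quantile normalization (1 higher). Leaving out each library gave 0 to 4, and leaving out PAM3CSK4 replicates 1 and 4 together gave 4. Each count of 4 includes Il10, which entered those fits only through its PAM3CSK4 libraries. Of the partner genes 5 were called, 0 without the filter (9 higher and 4 lower at an unadjusted p under 0.05) and 3 to 7 with each library left out. Of all genes 582 were called, 32 without the filter, 976 with the replicate number as a block, 184 (without vehicle replicate 2) to 1008 (without PAM3CSK4 replicate 1) with each library left out, and 1200 without PAM3CSK4 replicates 1 and 4. The block left 1 cytokine gene called and called 7 partner genes, with Il6st (adjusted p = 0.0415) and Il18r1 (0.0389) in addition to the 5. Rises made up 55.2% of all calls in dendritic cells, 29.9% after median centring, 35.1% after quantile normalization and 41.5% with a common total. The median log2 change of all genes moved from 0.20 to −0.02, 0.02 and 0.07. The same-numbered libraries' deviations correlated at 0.03, 0.29, −0.12 and 0.30, and 3 of 4 correlated best with their own number. These values do not settle whether the numbers pair the samples.

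In macrophages against monocytes, with 1 cytokine gene called, none was called at a filter of 5 CPM (0 of the 1 tested, Il15, also 0 at an unadjusted p under 0.05), because Il18 is then not tested, and 2 were called after quantile normalization, both lower. Higher genes made up 63.4% of all calls, 51.3% after median centring, 44.8% after quantile normalization and 73.3% with a common total. The block called 1 cytokine gene and 2609 genes in all, where the fit without it called 2468. Same-numbered libraries correlated at 0.18, 0.08 and 0.12, each best with its own number. Leaving out each library gave 12 to 18 partner genes and 1699 to 3364 of all genes. Other alternatives left each of these counts within 1.5 times its value. Beyond the loss of Il18 to the filter, the causes of these changes were not tested.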
